A study of Mus musculus with 8 samples.

Results

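Promoters of long noncoding RNA (lncRNA) genes were examined in mouse embryonic stem cells (mESCs) by cap analysis of gene expression (CAGE-seq), which captures the capped 5′ end of RNA and so marks the base at which transcription began. A tag cluster, a run of neighbouring start sites on one strand, was counted as an lncRNA promoter when its dominant TSS, the start site used most, lay within 500 bp of the 5′-most annotated start of a lncRNA gene on the same strand and over 500 bp from every protein-coding transcript start on that strand. The genes were those of 6 GENCODE types, namely lincRNA, antisense, processed_transcript, sense_intronic, sense_overlapping and bidirectional_promoter_lncRNA. Wild-type E14 held 843 such clusters of 32857, Pwwp2a/b double knockout (DKO) clone A1 held 844 of 33005 and Pwwp2a/b DKO clone C7 held 841 of 32870, which was 2.57%, 2.56% and 2.56% of all clusters.

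The 8 CAGE-seq libraries were made from nuclear RNA of E14 mESCs kept undifferentiated in serum and LIF on gelatine. Of these, 3 came from the unmodified wild-type line, 2 from clone A1 and 3 from clone C7; both clones lack PWWP2A and PWWP2B, a pair of related proteins that bind the gene-body mark H3K36me3 and a histone deacetylase complex. Each of A1 and C7 is a single clone, so a difference seen in one of them cannot be told apart from a property of that clone. The authors merged the replicates, and the deposited table holds 1 set of clusters per line, so each line gives a single value with no replicate error, no test between lines was possible, and the intervals given here cover counting error only. The deposited clusters carry positions but no tag numbers (the score of every cluster was 0), so the depth behind each cluster is unknown and levels of RNA were not measured.

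Genes for lncRNAs are transcribed by RNA polymerase II, as messenger RNA genes are, and their RNAs are capped. Many start back to back with a protein-coding gene, others lie antisense to one, and many stand alone between genes. Some host small nucleolar RNAs (snoRNAs) in their introns, some act on chromatin in cis, as Xist does on the X chromosome, and some are structural, as Neat1 is in paraspeckles. Promoters differ in shape: sharp ones start within a few bases, often with a TATA box upstream, and broad ones start over a wider stretch, mostly in CpG-rich sequence. A further class, the 5′ terminal oligopyrimidine (TOP) promoters of ribosomal proteins and snoRNA hosts, starts sharply at a C followed by an unbroken run of pyrimidines.

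The sequences around the dominant TSS of 10 clusters at snoRNA host genes are shown because they come from the list with the lowest median width of the 6 examined and, in the last 2 lines, broad members of the same list for comparison. Each runs from 40 bases before the dominant TSS in wild-type E14 to 19 bases after it, 5′ to 3′, with positions on mm10; sequences were put together from RefSeq promoters (GRCm38.p6) and GENCODE vM21 transcripts. Capitals mark the dominant TSS with the pyrimidine run that starts there (the TSS alone where the run is 0) and, where present, TATAA.
Dancr (chr5:74093079-74093138, plus strand): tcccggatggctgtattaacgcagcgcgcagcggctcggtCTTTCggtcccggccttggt
Snhg1 (chr19:8723447-8723506, plus strand): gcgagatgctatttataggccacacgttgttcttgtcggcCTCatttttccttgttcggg
Snhg5 (chr9:88522869-88522928, minus strand): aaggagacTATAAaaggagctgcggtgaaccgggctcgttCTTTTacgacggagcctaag
Snhg8 (chr3:123508317-123508376, minus strand): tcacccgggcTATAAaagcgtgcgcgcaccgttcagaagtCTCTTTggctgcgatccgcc
Snhg9 (chr17:24719880-24719939, minus strand): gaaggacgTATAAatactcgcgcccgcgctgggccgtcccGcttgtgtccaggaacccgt
Snhg12 (chr4:132308636-132308695, plus strand): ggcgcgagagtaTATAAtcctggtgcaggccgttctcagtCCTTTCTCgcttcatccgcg
Snhg18 (chr15:32244641-32244700, minus strand): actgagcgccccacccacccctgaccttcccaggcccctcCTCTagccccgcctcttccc
Zfas1 (chr2:167063182-167063241, plus strand): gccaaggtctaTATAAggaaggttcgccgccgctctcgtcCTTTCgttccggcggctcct
Gas5 (chr1:161034581-161034640, plus strand): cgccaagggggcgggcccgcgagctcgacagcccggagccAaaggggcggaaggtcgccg
Snhg17 (chr2:158361503-158361562, minus strand): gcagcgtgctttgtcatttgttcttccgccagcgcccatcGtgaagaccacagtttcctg

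Of 17 annotated snoRNA host genes on the list (the Snhg genes of these types, Gas5, Zfas1, Dancr and Epb41l4aos), 14 held a promoter cluster in wild-type E14, 13 in clone A1 and 14 in clone C7. Their 19 clusters in E14 had a median interquantile width of 4 bp, the span that holds the central 80% of the signal in a cluster, against 14 bp over all lncRNA promoter clusters, and 13 of the 19 were sharp, at 10 bp or less. At Snhg1, whose introns hold several snoRNAs, the interquantile width was 2 bp in E14, 2 bp in A1 and 2 bp in C7, with the dominant TSS on the same base in each line. The same held at Snhg8 (2 bp in each line), Snhg12 (2 bp in each), Snhg5 (4 bp in each) and Snhg9 (4 bp in each). Dancr was 4 bp wide in E14, 6 bp in A1 and 4 bp in C7. Wider clusters were present at Snhg15, with 5 clusters of 9 to 55 bp in E14 (2 of them sharp, at 9 bp), Snhg17 at 52 bp in each line, Snhg10 at 44 bp in E14 and 49 bp in both clones, and Gas5 at 23 bp in each line. Of the 2 sharp Snhg15 clusters, 1 was 23 bp wide in both clones.

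Snhg18 was the gene of the snoRNA host list missing from one line. Its cluster on chromosome 15, from 32244643 to 32244660 of mm10 in E14, had no overlapping cluster in A1. The cluster was 1 bp wide between the quantiles in E14 and 18 bp in C7. Epb41l4aos, on chromosome 18, had the largest growth of width shared by the clones among all lncRNA promoters, from 5 bp in E14 to 29 bp in A1 and 32 bp in C7, without a move of its dominant TSS.

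Where sequence was available for a TSS at least 1 bp inside the gene (14 of 16 host clusters off chromosome 18), 8 of 14 host clusters started at C in E14, and 6 of 14 (42.9%, 95% Wilson interval 21.4 to 67.4) started at C followed by at least 4 further pyrimidines, the letters of a TOP start. These were Dancr, Snhg5, Snhg8, Snhg12, one of the Zfas1 clusters and one of the Snhg15 clusters. The other Zfas1 cluster, 2 bp wide with its dominant TSS 349 bp downstream of the annotated start, started at G. The Snhg15 start lay 369 bp downstream of the annotated start, at a run of 15 pyrimidines followed by AGG. Its dominant TSS lay 8 bp further upstream in A1, and whether it is a TOP promoter was not tested. In A1 the count was 5 of 13 (38.5%, 17.7 to 64.5). The other lncRNA promoters held such a start in 33 of 455 (7.25%, 5.21 to 10.0), and protein-coding promoters in 387 of 10242 (3.78%, 3.43 to 4.17). Those sets are mostly broad, unlike the hosts. Among sharp clusters alone the share was 25 of 191 for lncRNA promoters, hosts included (13.1%, 9.03 to 18.6). It was 139 of 2589 for protein-coding ones (5.37%, 4.56 to 6.31). TATAA was searched on the transcribed strand alone, in the bases from 40 to 19 before the TSS. It stood at 5 of 14 host clusters (35.7%, 16.3 to 61.2), at Snhg5, Snhg8, Snhg9, Snhg12 and the Zfas1 cluster that starts at C. Among other lncRNA promoters it stood at 7 of 385 (1.82%, 0.883 to 3.70). Over all 32851 RefSeq promoters the same letters stood in that window before the annotated start in 3.44%. Sharp protein-coding clusters held TATAA in 173 of 2370 (7.30%, 6.32 to 8.42). Sequence covered too few sharp lncRNA clusters for that count (159 of 207). These are counts of letters in a window and not of bound sites, and the host list is small, with several clusters of one gene in it.

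**Figure D1:**
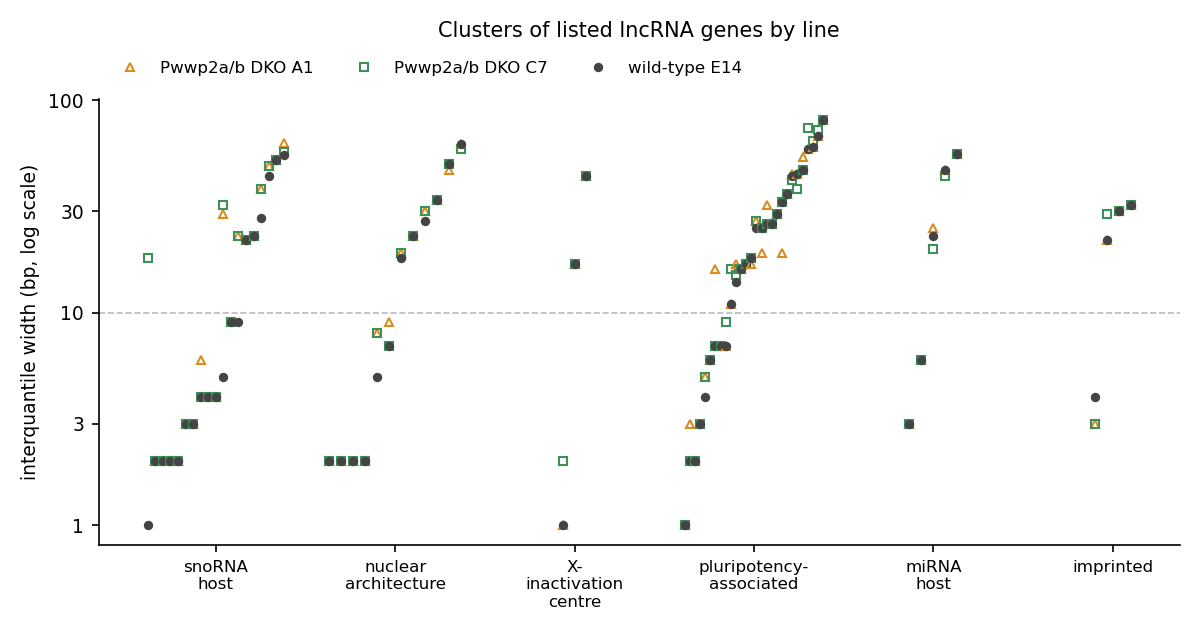
Interquantile width in bp (log axis) of each promoter cluster of 6 lists of lncRNA genes, in wild-type E14 (filled circles), DKO A1 (triangles) and DKO C7 (squares); clusters are ordered by their E14 width within a list and the dashed line marks 10 bp. In E14 the snoRNA host clusters lie mostly under the line (13 of 19) and the pluripotency-associated ones mostly over it (9 of 28 at or under it). Symbols of the 3 lines overlap at most clusters, but some host clusters that are sharp in E14 lie over the line in the clones.

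The other listed genes included RNAs with well-known roles. Windows from 20 bases before to 19 bases after the dominant TSS in E14 are shown for 7 of them. Their start base was the same in all 3 lines, as it also was at other listed genes, Firre and Mir142hg among them. The single capital is the dominant TSS. The first 3 were sharp and the last 4 broad.
Malat1 (chr19:5802652-5802691, minus strand): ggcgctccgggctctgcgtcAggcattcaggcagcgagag
Xist (chrX:103483199-103483238, minus strand): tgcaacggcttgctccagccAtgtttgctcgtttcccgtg
Meg3 (chr12:109540978-109541017, plus strand): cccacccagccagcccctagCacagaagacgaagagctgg
Jpx (chrX:103493564-103493603, plus strand): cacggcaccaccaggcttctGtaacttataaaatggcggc
Ftx (chrX:103623705-103623744, minus strand): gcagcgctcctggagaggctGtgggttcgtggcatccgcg
Kcnq1ot1 (chr7:143296521-143296560, minus strand): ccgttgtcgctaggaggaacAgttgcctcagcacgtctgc
Nespas (chr2:174295418-174295457, minus strand): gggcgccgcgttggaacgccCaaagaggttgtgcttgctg

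The X-inactivation list had clusters at 3 of 4 genes in each line. Xist, the RNA that coats and silences an X chromosome, started within 1 bp in E14 and A1 and within 2 bp in C7. Jpx, an activator of Xist, was 17 bp wide and Ftx, another noncoding gene of the X-inactivation centre, 44 bp wide in each line. Tsix, the antisense repressor of Xist, had no cluster within 500 bp of its 5′-most start in any line.

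The list named nuclear architecture, on which Pvt1 and 2900097C17Rik (Norad) were also placed, had clusters at 5 of 6 genes in each line. The name is a heading and does not give the role of each member. Malat1, an abundant RNA of nuclear speckles, had an interquantile width of 5 bp in E14 and 8 bp in A1 and C7. Neat1, the scaffold of paraspeckles, held 7 clusters in each line between 5845178 and 5845833 on chromosome 19, with dominant TSSs from 333 bp upstream to 299 bp downstream of the annotated start. Of these, 4 were 2 bp wide in every line and 3 were 18, 23 and 27 bp wide in E14, and the dominant TSS of 2 of the 7 lay elsewhere in C7 than in E14 (17 bp upstream and 6 bp downstream). Firre, an X-linked RNA with repeats that binds chromatin, was 62 bp wide in E14 and A1 and 59 bp in C7. Pvt1, next to Myc, had clusters of 34 and 50 bp in E14, and 2900097C17Rik (Norad), an RNA that binds Pumilio proteins, one of 7 bp.

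Among 9 imprinted lncRNA genes, 4 had a cluster in E14, 5 in A1 and 4 in C7. Meg3, expressed from the maternal chromosome, was sharp at 4 bp in E14 and 3 bp in both clones. Kcnq1ot1, which silences neighbouring genes on the paternal chromosome, was 32 bp wide in each line, and Nespas, antisense to Nesp at the Gnas locus, 30 bp in each line. Airn, the antisense silencer of Igf2r, had its dominant TSS 3 bp further upstream in both clones than in E14, with widths of 22, 22 and 29 bp in E14, A1 and C7. Rian, a host of many snoRNAs near Meg3, had a 3 bp cluster in A1 alone.

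Of 34 genes of the 6 types on the pluripotency-associated list (Platr transcripts, which were named for association with pluripotency, and a few others; Haunt, Panct1 and Tunar are annotated under other types and were left out), 18 had clusters in each line, and the 28 clusters had a median width of 21.5 bp in E14, from 1 to 81 bp. Platr10 held 4 clusters, of 26, 26, 2 and 44 bp in E14. Platr8 was among the 5 widest of all lncRNA promoters at 81 bp in each line, and its dominant TSS lay on the same base in E14 and A1 and 60 bp further upstream in C7. Trp53cor1 (lincRNA-p21), a target of p53, had clusters of 68 and 16 bp in E14. The miRNA host list had clusters at 4 of 10 genes in each line, among them Mir22hg at 47, 47 and 44 bp in E14, A1 and C7 and Mir142hg at 3 bp in each.

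Across all lncRNA genes, 645 of 10150 annotated genes had a promoter cluster in wild-type E14 (6.35%, 95% Wilson interval 5.90 to 6.85), against 9717 of 21951 protein-coding genes (44.3%). The share differed by type. It was 4.92% for lincRNA (288 of 5854), 5.71% for antisense (169 of 2959), 16.3% for processed_transcript (129 of 790) and 28.4% for bidirectional_promoter_lncRNA (54 of 190), with 4 of 327 sense_intronic and 1 of 30 sense_overlapping genes. Both clones also held clusters at 645 genes. Most genes had a single cluster (508 of 645, 78.8%, in E14, against 70.0% of protein-coding genes), 100 had 2, 22 had 3 and 15 had 4 or more.

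The genes with the most clusters in E14 were AY036118 and Neat1 with 7 each, followed by 5031425E22Rik, BC051226 and Snhg15 with 5 each, and all had the same number in both clones. AY036118 lies on the strand opposite to Gm42418 on chromosome 17, and RefSeq lists Gm42418 as a synonym of Rn18s-rs5, a copy of 18S ribosomal RNA. The widest clusters were there too: Gm26917 (39842990 to 39843560) was 246 bp wide in E14, 247 bp in A1 and 221 bp in C7, and Gm42418 had clusters of 205, 197 and 193 bp and of 147, 149 and 144 bp. Reads from the many near-identical ribosomal repeats cannot be told apart from reads of this locus, so these 12 clusters of 3 genes are uncertain as lncRNA promoters; without them E14 kept 831 clusters, A1 832 and C7 829, the median widths were the same in each line, and the shares of clusters absent from another line, with a moved dominant TSS or with a pyrimidine-purine step stayed within their 95% intervals. The next widest were 9330185C12Rik at 93 bp in each line and Platr8.

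Promoters of lncRNA genes were narrower by median than those of protein-coding genes in every line. The clusters carry no tag numbers, so the part of depth in width differences between lncRNA and protein-coding clusters, here and below, was not tested. The median interquantile width was 14 bp in E14, 15 bp in A1 and 15 bp in C7, with quartiles of 5 and 30 bp in each. At protein-coding gene starts (13805 clusters in E14, within 500 bp of the 5′-most start and over 500 bp from a lncRNA gene start on that strand) it was 23 bp in E14 and 24 bp in both clones. Clusters of 10 bp or less made up 40.9% of lncRNA promoters in E14 (37.7 to 44.3), 338 of 844 in A1 (36.8 to 43.4) and 40.3% in C7 (37.0 to 43.7), and 28.6%, 28.0% and 28.1% of protein-coding ones. Over all tag clusters, which include those inside genes and between them, the median was 12 bp in each line, below both.

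**Figure D2:**
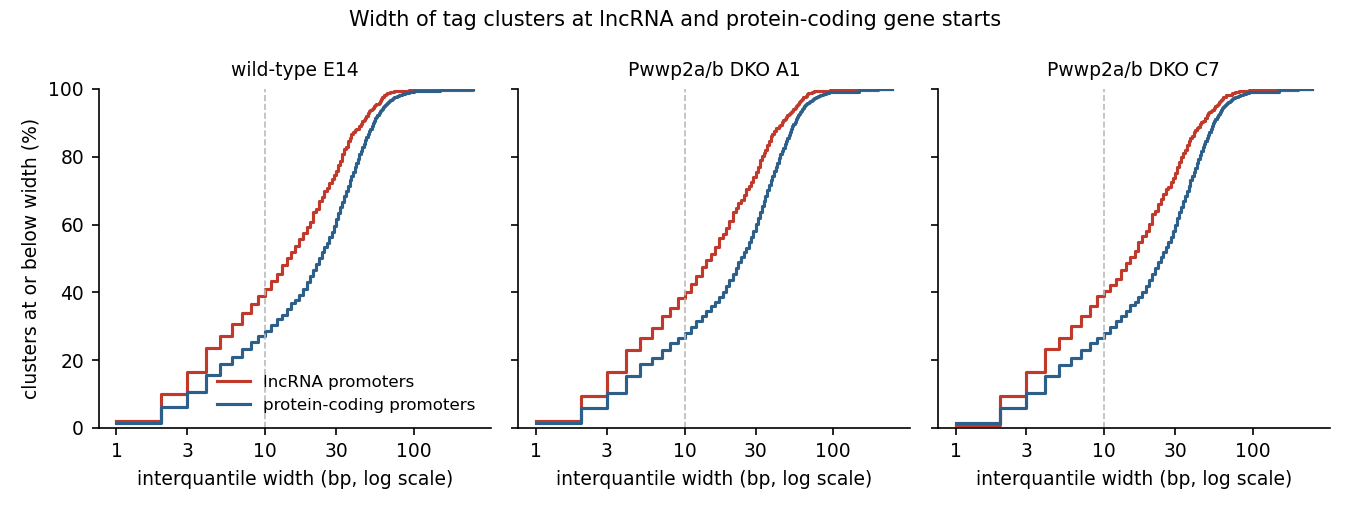
Cumulative share of clusters (%) against interquantile width (bp, log axis) for lncRNA promoters (red) and protein-coding promoters (blue) in each of the 3 lines; the dashed line marks 10 bp. Between 2 and 100 bp the red curve lies over the blue one, with 40.9% against 28.6% of clusters at or under 10 bp in wild-type E14, and the panels look alike.

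The difference was not confined to a few chromosomes. The lncRNA median was below the protein-coding one on 20 of 20 chromosomes in E14, 20 of 20 in A1, and 19 of 20 in C7 with 1 equal. Among gene types the median in E14 was 14 bp for lincRNA, 14 bp for antisense, 15 bp for processed_transcript and 18 bp for bidirectional_promoter_lncRNA, all below the protein-coding value. An interquantile width of 1 bp was found in 18 lncRNA clusters in both E14 and A1 and in 8 in C7.

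The dominant TSS lay close to the annotated gene start, with a median of 12 bp downstream in each line (quartiles 10 bp upstream and 66.5 bp downstream in E14), against 36 bp downstream in E14 for protein-coding genes. It lay within 10 bp of the annotated start in 24.6% of lncRNA promoter clusters (21.8 to 27.6) and 17.3% of protein-coding ones. It also lay upstream of the annotated start more often, in 32.7% of lncRNA clusters against 17.9% of protein-coding ones. It lay downstream in 60.6% of lncRNA clusters and 77.6% of protein-coding ones. These distances run to the 5′-most start of a gene, and the number of annotated transcripts per gene was not taken into account. With any transcript start of the gene, 34.4% of lncRNA clusters in E14 lay within 10 bp. The protein-coding share for that setting was not computed, so the part of annotation in these differences was not tested.

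**Figure D3:**
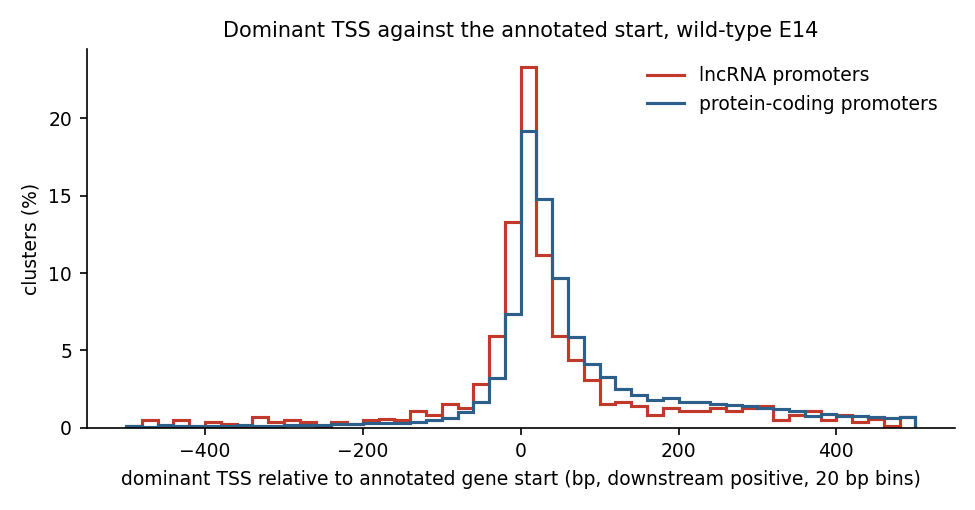
Share of clusters (%) in 20 bp bins by distance from the annotated gene start to the dominant TSS (bp, downstream positive) for lncRNA promoters (red) and protein-coding promoters (blue) in wild-type E14. Both peak in the first bin downstream of the start, and the red outline holds more clusters upstream (32.7% against 17.9%).

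Many lncRNA promoters stood near a protein-coding gene that starts on the other strand. A protein-coding transcript start on the opposite strand lay within 1000 bp of the dominant TSS in 374 of 843 clusters in E14 (44.4%, 41.0 to 47.7), 374 of 844 in A1 and 375 of 841 in C7, against 18.2% of protein-coding clusters in each line. The share was 21.3% for lincRNA, 43.6% for processed_transcript and 70.7% for antisense; for bidirectional_promoter_lncRNA it was 100%, which the annotation fixes. In 362 of the 374 (96.8%) a tag cluster of E14 was also present at a coding start within that distance.

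In E14, 309 lncRNA clusters formed head-to-head pairs with a cluster of a coding gene lying upstream on the other strand, with 256 distinct coding clusters among them. The dominant TSSs were a median of 168 bp apart (quartiles 112 and 271 bp). The coding partner was the wider cluster in 213 pairs and the narrower in 87, with 9 equal, and the median widths were 17 bp for the lncRNA and 31 bp for the partner. The pairs looked alike in A1 (311 pairs, partner wider in 219) and C7 (311 pairs, partner wider in 221).

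**Figure D4:**
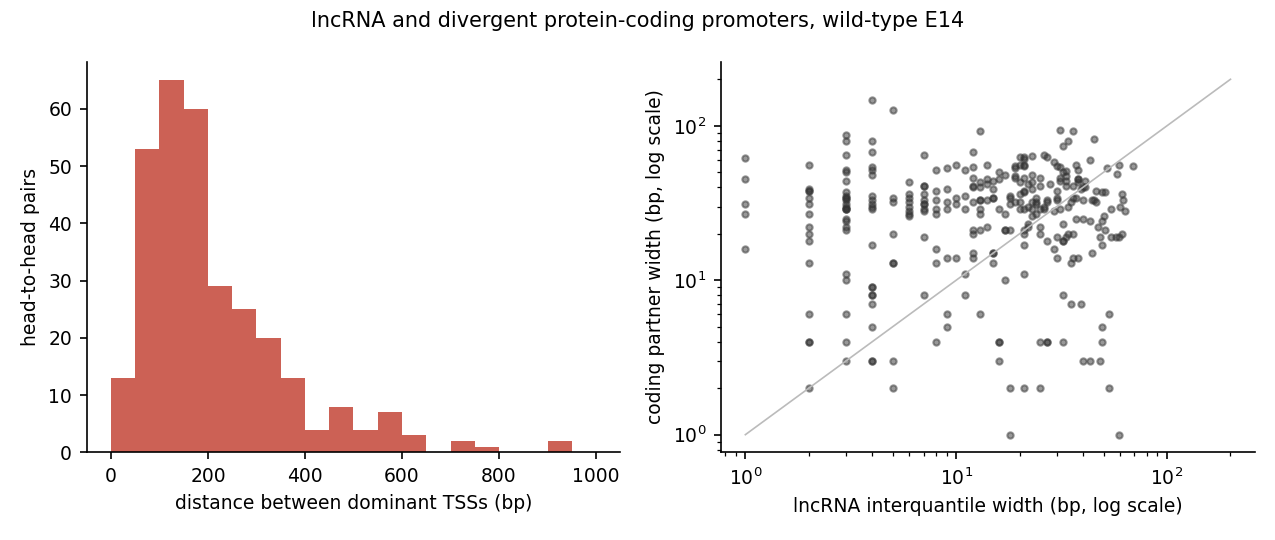
Left, number of the 309 head-to-head pairs in wild-type E14 by distance between the dominant TSSs of lncRNA and coding partner (bp, 50 bp bins). Right, interquantile width of the coding partner against that of the lncRNA cluster (bp, both log axes), with a grey line at equal widths; 213 points lie over the line, 87 under it and 9 on it.

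A pair of whole bidirectional promoters is shown because both of their starts are sharp. Each sequence is read along the lncRNA strand from 20 bases beyond the coding TSS to 20 bases beyond the lncRNA TSS, and the capitals mark the dominant TSS of the coding gene (first, on the other strand) and of the lncRNA (second).
Snhg1 and Slc3a2 (chr19:8723301-8723507, plus strand): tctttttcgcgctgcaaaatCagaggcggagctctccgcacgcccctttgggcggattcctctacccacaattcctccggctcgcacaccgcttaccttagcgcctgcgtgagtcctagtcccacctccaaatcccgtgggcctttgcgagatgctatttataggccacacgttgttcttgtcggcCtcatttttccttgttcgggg
Snhg9 and Rps2 (chr17:24719879-24720130, minus strand): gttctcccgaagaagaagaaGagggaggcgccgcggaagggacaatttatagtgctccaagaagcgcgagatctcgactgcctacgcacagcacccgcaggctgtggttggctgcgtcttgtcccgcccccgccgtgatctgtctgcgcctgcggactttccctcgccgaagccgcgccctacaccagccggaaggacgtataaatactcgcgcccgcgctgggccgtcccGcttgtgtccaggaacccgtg

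Snhg1 and Slc3a2, which encodes the heavy chain of amino acid transporters, started 166 bp apart with widths of 2 bp and 2 bp in E14. Snhg9 and Rps2, a ribosomal protein gene, started 211 bp apart with widths of 4 bp and 3 bp. Other listed pairs were less even: Snhg18 and Sema5a, a guidance receptor gene, lay 164 bp apart with widths of 1 bp and 16 bp, and Platr20 and Gm12569 lay 155 bp apart with 29 bp and 58 bp.

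The lncRNA promoters with a coding start nearby differed little in width from those without, with medians of 15 and 13 bp in E14, 15.5 and 14 bp in A1 and 15 bp for both in C7. Sharp clusters made up 37.7% of the former (32.9 to 42.7) and 43.5% of the latter (39.1 to 48.0) in E14, intervals that overlap.

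The bases at the dominant TSS could be compared for TSSs inside the gene off chromosome 18, where sequence covered 469 of 494 lncRNA clusters and 10242 of 10448 protein-coding ones. RNA polymerase II favours a pyrimidine before the start and a purine at it. This step was present in 350 of 469 lncRNA clusters in E14 (74.6%, 70.5 to 78.4) and in 80.0% of protein-coding ones (79.2 to 80.7). Among lncRNA clusters with a coding start within 1000 bp on the other strand, the step was present in 79.5% (73.7 to 84.2). Without such a start it was present in 70.2% (64.2 to 75.6), and these intervals overlap. It was present in 63.4% of sharp lncRNA clusters (56.3 to 69.9) and 82.4% of broad ones (77.5 to 86.4), and in protein-coding genes in 72.4% and 82.5%. In A1 the step was present in 68.1% of sharp lncRNA clusters (61.2 to 74.3) and 80.8% of broad ones (75.7 to 85.0). A C at the start made up 19.9% of sharp lncRNA clusters (14.9 to 26.1) and 8.27% of broad ones (5.58 to 12.1) in E14. In A1 these shares were 17.3% (12.6 to 23.3) and 10.5% (7.42 to 14.7), intervals that overlap. Protein-coding clusters in E14 also started at C more often when sharp, in 12.6% against 7.63% of broad ones. In the 50 bases from 40 before the TSS on, the median GC content was 62.0% in 399 lncRNA clusters and 66.0% in 9376 protein-coding ones, and at least 1 CpG was present in 90.5% (87.2 to 93.0) of the former and 97.7% of the latter. TATAA stood upstream in 12 of 399 lncRNA clusters (3.01%, 1.73 to 5.18) and 2.25% of protein-coding ones (1.97 to 2.57). It stood in 0 of 240 broad lncRNA clusters, which allows a share of up to 1.25% (3 counts of the total, with an upper Wilson bound of 1.58%). Broad protein-coding clusters held it in 0.542% (0.395 to 0.744), a share inside that limit.

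The study set wild-type cells against Pwwp2a/b DKO clones to examine the part of PWWP2A/B in spurious transcription initiation. At lncRNA promoters nearly every cluster was held by all lines: 835 of 843 E14 clusters overlapped a cluster in both A1 and C7 on the same strand. Both comparisons with the clones share the wild-type set. In A1, 5 E14 clusters (0.593%, 0.254 to 1.38) had no overlapping cluster, beside 0.709% of all E14 clusters. In C7 the count was 5 (0.593%), beside 0.749% of all. In the other direction, 5 of 844 A1 clusters had none in E14 (0.592%), beside 1.11% of all A1 clusters, and 3 of 841 C7 clusters (0.357%, 0.121 to 1.04), beside 0.776% of all C7 clusters. Among protein-coding promoters the share was 0.413% and 0.384% for E14 clusters missing from A1 and C7, and 0.369% and 0.283% for A1 and C7 clusters missing from E14. The 4 lncRNA shares rest on counts of 3 to 5, and the shares of all clusters and of protein-coding promoters lay inside their intervals.

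The 13 clusters not held by all lines were small, 7 of them with a whole width of 1 or 2 bp. Gm49263 and AC133601.1 had a 1 bp cluster in E14 alone, and 3010003L21Rik (2 bp), Gm16062 (2 bp) and Gm26766 (1 bp) had one in both clones and not in E14. Gm30504 and Rian were found in A1 alone. F630040K05Rik, Gm12866 and Gm16104 were missing from C7, and 1700034H15Rik, Snhg18 and Tmem51os1 from A1. In the lines without the cluster, AC133601.1, Gm12866, Gm16104 and Gm26766 held 1 or 2 other clusters at the same gene start, and the other genes held 0.

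Within the clusters held by both lines, the dominant TSS lay on another base in A1 than in E14 in 202 of 838 (24.1%, 21.3 to 27.1), beside 23.8% of all clusters. In C7 it did so in 190 of 838 (22.7%, 20.0 to 25.6), beside 21.1% of all. The clones set against each other gave 217 of 839 (25.9%, 23.0 to 28.9), beside 25.2% of all, so the difference between the clones was about as frequent as that from wild-type. Moves went both ways, 102 upstream and 100 downstream in A1 and 92 and 98 in C7, with medians of 7 and 7.5 bp. Protein-coding promoters moved in 20.8%, 18.5% and 21.7% in the same comparisons.

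**Figure D5:**
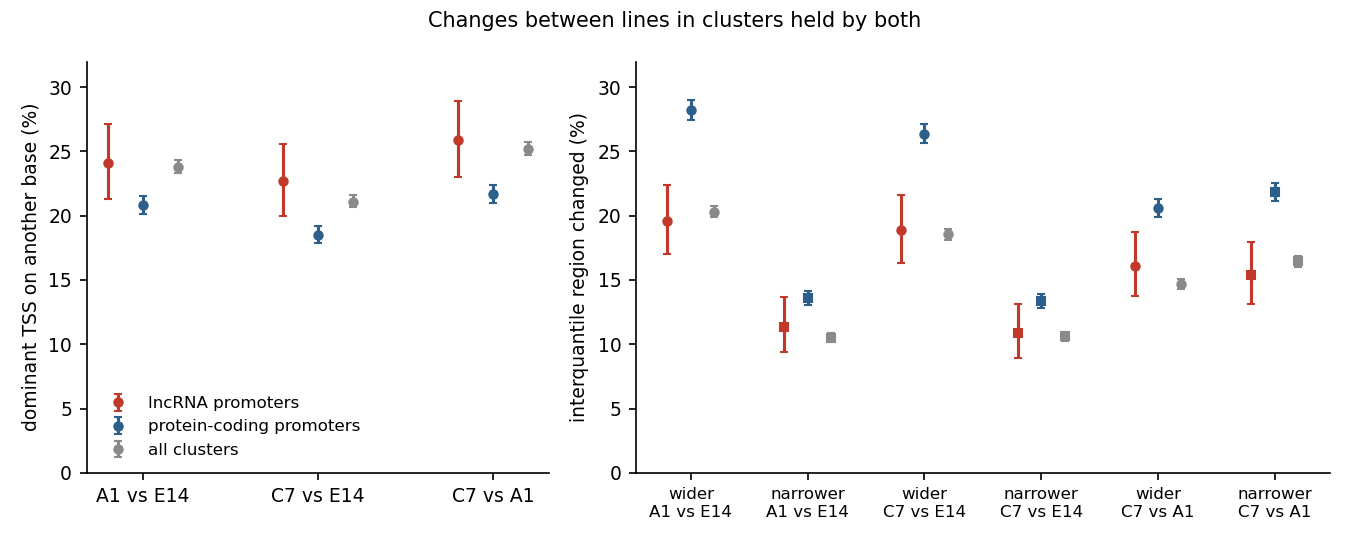
Left, share (%) of clusters held by both lines whose dominant TSS lay on another base, for lncRNA promoters (red), protein-coding promoters (blue) and all clusters (grey) in 3 comparisons; right, share (%) whose interquantile region was wider (circles) or narrower (squares) in the first-named line. Bars are 95% Wilson intervals for counting error, and the red points lie near the grey ones (24.1% against 23.8% moved in A1 vs E14), while the blue points are lower on the left and higher for wider regions on the right.

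The 5 clusters that moved furthest onto one and the same base in both clones are named for that move, which is a description only. B130055M24Rik, on chromosome 7, moved 54 bp downstream, from 127448635 to 127448689, 2410080I02Rik 37 bp downstream, Gm2885 37 bp downstream, 5031415H12Rik 35 bp upstream and Gm6712 35 bp downstream. The region itself kept its width at Gm2885 (38 bp in each line), 5031415H12Rik (36 bp) and Gm6712 (63 bp). At 2410080I02Rik the width was 2 bp in E14, 48 bp in A1 and 11 bp in C7. Its E14 cluster ran only from 23135079 to 23135080, so the start in both clones, at 23135116, lay outside it. The clone clusters were matched to it because they overlapped it, and a different joining of neighbouring starts cannot be told apart from a move there. The regions of 5031415H12Rik and Gm6712 are shown because both starts lie in a sequence that could be read, from 10 bases before the first start to 10 bases after the second, with both starts in capitals.
5031415H12Rik (chr17:70755422-70755477, minus strand): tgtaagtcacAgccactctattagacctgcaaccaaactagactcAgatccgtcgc
Gm6712 (chr17:17294416-17294471, plus strand): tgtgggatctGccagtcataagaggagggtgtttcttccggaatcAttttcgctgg
At 5031415H12Rik both starts were the A of a CA step, and the clones used the first. At Gm6712 the E14 start was the G of a TG step and the start in both clones was the A of a CA step.

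The interquantile region was the same width in most lncRNA clusters. It was wider in A1 than in E14 in 164 of 838 (19.6%), beside 20.3% of all clusters, and narrower in 95 (11.3%), beside 10.5% of all. In C7 it was wider in 158 (18.9%), beside 18.5% of all, and narrower in 91 (10.9%), beside 10.6% of all. Wider regions outnumbered narrower ones in both clones, as they did over all clusters, and between A1 and C7 the counts were close (135 wider in C7, 129 narrower). Protein-coding promoters were wider in A1 in 28.2% and narrower in 13.6%.

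The 5 that grew most in both clones, again named for that growth, were Epb41l4aos, 6720427I07Rik (22 bp in E14, 44 in A1, 51 in C7), C330018A13Rik (17, 37 and 37 bp), 3830408C21Rik (18, 37 and 45 bp) and 2310015A10Rik (4, 21 and 21 bp). The dominant TSS stayed in place in both clones at Epb41l4aos, 6720427I07Rik and 2310015A10Rik. The lines were merged from 3, 2 and 3 libraries and the files give no tag numbers, so the part of depth in these widths was not tested.

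The identity of the cells was read from the presence of promoter clusters. Of 8 embryonic stem cell markers, 7 had a cluster in each line (Pou5f1, Sox2, Nanog, Zfp42, Klf4, Dppa5a and Tdgf1; Esrrb had none at its 5′-most start), and of 5 lineage markers none had one (Gata6, Sox17, T, Cdx2, Pax6; 0 of 5 in each line). Of 4 fibroblast genes (Col1a1, Col1a2, Col3a1 and Thy1), 2 had a cluster in E14, Col1a1 and Thy1, and 3 had one in each clone. Over all protein-coding genes, 44.3% had a promoter cluster in E14, so counts this small give only a rough reading of identity. Pwwp2a had a promoter cluster in every line and Pwwp2b in none, and since the clusters give no level, presence at a start does not check the deletions.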

How the data were processed

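CAGE-seq libraries of nuclear RNA were sequenced and processed by the authors. Per the labels, reads were aligned to mm10, with STAR 2.4.2a, SAMtools 1.3 and bedtools 2.17.0 named in the submitters' processing notes; per the study's methods, start sites were normalised and clustered with CAGEr and replicates were merged. The deposited table gives 1 set of tag clusters per line as positions (unit: other), namely cluster ends, dominant TSS and the interquantile region between quantiles 0.1 and 0.9, with a score of 0 throughout and no counts, so the depth behind each cluster is unknown and the totals of the libraries were not used here. No column held the values of a single library, so the groups are the 3 lines.

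Clusters were assigned to GENCODE vM21 genes (the authors annotated with another release) as described above. A cluster was taken as held by another line where any base of it was shared there on its strand (1 bp or more), and intervals are Wilson 95% ones. No p-value is given, since each line is a single set. Sequence came from 32851 RefSeq promoters and GENCODE transcripts, which gave the same base wherever both covered a position. RefSeq promoters matched 356 of 645 genes (55.2%), under the minimum of 80%, so the planned gene promoter motifs were dropped, and steps at the TSS are given for starts inside the gene. Functions were tested on simulated clusters. Python 3.11.15, NumPy 2.4.6, SciPy 1.17.1 and Matplotlib 3.10.9 were used.

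The members and gene lists were chosen with earlier results of these data known. Genes were named when on a list, among the 5 with most clusters, the 5 widest, the 5 that moved furthest or grew most in both clones, or held by some lines and not others; the clusters in 1 clone alone, or missing from 1 clone alone, were added after their values were seen. Alternatives covered the window, the distance from coding starts, the matching, the width measure and the gene types.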

Additional observations from a re-analysis of the deposited data

How the results depend on the processing

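No paired analysis was possible because the libraries of each line were merged before deposit, so replicate numbers label no values; for the same reason no library could be left out. Of 105 values under alternatives, 86 stayed within the 95% interval of the reported value (for counts, within 1.5 times) and 19 moved. A change of direction was not scored. With lincRNA genes alone the clusters numbered 385, 384 and 381 in E14, A1 and C7. With clusters of at least 3 bp alone, 0.131% of A1 and 0% of C7 clusters (0 of 762, which allows up to 0.394%, 3 counts of the total; the upper Wilson bound is 0.502%) were absent from E14, beside 0.176% and 0.143% of all clusters of that width, and the median width in E14 was 17 bp. Counting moves of 5 bp or more, the dominant TSS moved in 15% in A1 and 14.2% in C7, beside 12.6% and 11.3% of all clusters. Among clusters sharp in E14, any move was seen in 22.4% in A1 and 19.1% in C7. All sharp clusters gave 23.7% and 20.7%, and sharp protein-coding ones 21.1% and 18.3%. The lncRNA share of any move thus lay below that of all clusters here, and above it with every width included. In each case the share of all clusters lay inside the 95% interval of the lncRNA share. For sharp clusters these intervals were 18.2 to 27.1 in A1 and 15.3 to 23.6 in C7, so neither direction stands out from counting error. Over whole clusters the median width was 19 bp in each line, and with 1 cluster a gene it was 17 bp in E14. The lncRNA median was below the protein-coding one in 18 of 18 pairs of line and setting. A coding start within 500 bp was near 40.2%, 40.2% and 40.5% of clusters in E14, A1 and C7, and the dominant TSS lay within 10 bp of any transcript start of the gene in 34.4%, 34.0% and 33.4%. Leaving out the ribosomal RNA locus on chromosome 17 and keeping the distance from every transcript of coding genes were chosen after seeing the data. The share moved to one base in both clones was not run, since the comparisons share wild-type E14.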
